A study of Homo sapiens with 12 samples.

Results

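The genes described here are the subunits of the nuclear RNA polymerases and the general transcription factors, taken as every listed symbol that starts with POLR1, POLR2 or POLR3, with TAF and a digit, or with GTF2 or GTF3. Of 23284 symbols in the first experiment of the series 84 met this rule, namely 31 polymerase subunits, 24 TAFs (TATA-binding-protein-associated factors) and 29 GTFs (general transcription factors). Of 12421 symbols in the second experiment 74 met it, with 30 polymerase subunits, 21 TAFs and 23 GTFs; the others were not analysed there. Both experiments sequenced polyadenylated RNA from the polysome fraction of sucrose gradients of HEK293 cells (a line from human embryonic kidney) in 12 libraries. All cells were transfected for 24 h with 5 ug of plasmid and treated with cycloheximide, which halts ribosomes on their mRNAs, before lysis. In the first experiment the groups were empty vector and a plasmid encoding STING, an adaptor protein in the sensing of DNA in the cytosol, with 2 libraries each. In the second, called the knockout experiment below, the groups were vector and STING in wild-type cells and vector and STING in cells labelled as knockouts of PERK, the endoplasmic reticulum kinase encoded by EIF2AK3, again with 2 libraries each. How the knockout cells were made, and whether they are 1 clone, is not stated in the labels. Nor is it stated that libraries of a group came from separate cultures, so each p-value reflects spread among libraries that may be technical.

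RNA polymerase I transcribes the large ribosomal RNA precursor, RNA polymerase II the messenger RNAs, and RNA polymerase III the transfer RNAs, 5S ribosomal RNA and other short RNAs. The enzymes share a set of small subunits, polymerases I and III share a further pair, and each has subunits of its own, the largest of which form the catalytic cleft. At promoters of polymerase II the TAFs join TATA-binding protein in TFIID, and TFIIA, TFIIB, TFIIE, TFIIF and TFIIH (the GTF2 genes) complete the initiation complex, while SL1, with its own TAFs, serves polymerase I, and TFIIIA and TFIIIC (the GTF3 genes) serve polymerase III.

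Levels are FPKM (fragments scaled by transcript length and by the number of mapped fragments). All describe RNA in the polysome fraction, where the amount of an RNA and its loading with ribosomes cannot be told apart here. Nor can fewer cells and less RNA per cell. The table of the knockout experiment has a lowest value of 1 and does not name its unit, and was read as FPKM with lower values set to 1, so a fall to the floor is understated. Neither table gives counts, so the depth of the libraries is unknown. FPKM summed to 2801937 and 2508731 in the vector libraries of the first experiment and to 2159857 and 2110173 in its STING libraries, and to between 1100589 and 1379862 in the knockout experiment. TMEM173, the gene of STING, stood between 13.8 and 14.9 FPKM with vector and between 65157 and 69253 with STING in the first experiment. EIF2AK3 was at most 0.465 FPKM in the first experiment and at most 1.15 in the knockout experiment, too low to check the knockout label. The summed level of 6 HEK293 markers lay between 115 and 157 FPKM in the first experiment, between 162 and 231 in wild-type and between 291 and 494 in knockout libraries of the second. NEFM, 1 of these markers, was at the lowest value throughout the first experiment and in wild-type cells. Lists of 6 blood-cell, 4 liver-cell and 5 fibroblast genes summed to at most 9.97, 4.63 and 0.39 FPKM in the first experiment, with PTPRC at 0 and ALB at most 0.474. In the second, 2, 1 and 1 of these genes were listed. They summed to at most 9.96, 2.5 and 1 in wild-type libraries, and to at most 14.3, 8.79 and 1.75 in knockout libraries.

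Within each polymerase the levels of the subunits spanned a wide range. The 12 subunits of polymerase II lay between 1.66 FPKM for POLR2A, the largest subunit, and 1127 FPKM for POLR2L, a small subunit of all 3 enzymes, with a median of 124 FPKM in the first experiment. For the 10 subunits of polymerase I that met the rule the median was 98.6 FPKM. For 16 of polymerase III, POLR3GL left out, it was 55.6 FPKM. These sets share subunits. Subunits with other symbols, CD3EAP, TWISTNB and ZNRD1 of polymerase I and CRCP of polymerase III, were not in them. The largest subunits were low in each enzyme. POLR1A, of polymerase I, stood at 0.267 and 0.196 FPKM with vector against 0.229 and 0.251 with STING. POLR2A stood at 1.14 and 1.59 FPKM with vector against 1.9 and 2.03 with STING. POLR3A, of polymerase III, stood at 2.71 and 2.5 FPKM with vector against 3.99 and 3.26 with STING. Those 3 were named for their role. In the knockout experiment POLR1A lay between 1 and 1.13, POLR2A between 8.52 and 16.6, and POLR3A between 2.37 and 5.45. Across the 78 members with a coding length, Spearman's rho between mean level and that length was -0.678 in the first experiment, and across 72 members it was -0.686 in the second. These are correlations across genes, which are not independent replicates.

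**Figure D1:**
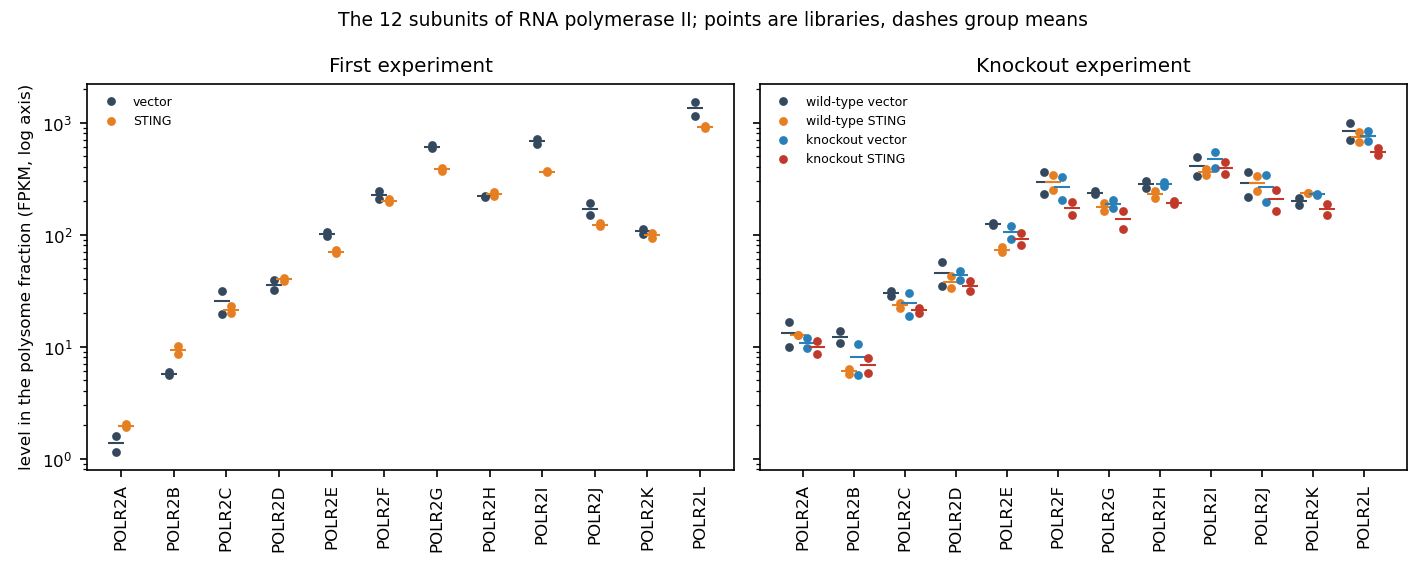
Level of each of the 12 subunits of RNA polymerase II (FPKM, log axis) in the libraries of the first experiment (left) and of the knockout experiment (right), with each library as a point and each group mean as a dash. POLR2I and POLR2G stood lower in both STING libraries of the first experiment than in both vector libraries, and POLR2A and POLR2B were the lowest subunits in both experiments.

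The first comparison asks what STING expression does to these mRNAs in the first experiment. Of the 84 members, 65 had a mean of at least 1 FPKM and were tested. The other 19 were too low, 3 of them (GTF2A1L, GTF2IP1 and GTF2IRD2P1) listed at 0 in all libraries. Nearest to that limit, GTF2H2D at 0.87 and POLR2J4 at 0.854 FPKM were left out, and POLR3F at 1.51 and POLR3B at 1.55 were kept. TAF1D rose, and POLR2I, POLR2G, POLR2E, POLR2L, POLR2J3 and GTF3A fell (limma with Benjamini-Hochberg adjustment, adjusted p under 0.05). That is 1 member higher and 6 lower of 65, beside 2.51% higher and 9.29% lower among all 9464 genes tested, or 11.8% in either direction. The share of members called was near that of all genes. The median log2 change, on the log2(FPKM + 1) scale that understates changes of low genes, was -0.06 over the members tested and -0.05 over all genes. Both turned positive with quantile normalization, to 0.13 and 0.02. By family, 5 of 28 polymerase subunits fell and 0 rose, 1 of 18 TAFs rose and 0 fell, and 1 of 19 GTFs fell and 0 rose. At an unadjusted p under 0.05 these became 8 lower and 1 higher for polymerase subunits, 0 and 2 for TAFs, and 3 and 0 for GTFs, beside 18.9% lower and 8.82% higher for all genes. Median log2 changes were -0.13, 0.21 and -0.06 in the same order; the differences between families were not tested.

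Among subunits of polymerase II alone, 2 of 7 fell, beside 9.29% of all genes tested. POLR2I, the small subunit RPB9 that acts in elongation and proofreading, stood at 720 and 641 FPKM with vector against 359 and 368 with STING (log2 change -0.90, SE 0.11, limma adjusted p = 0.0030). Both STING libraries lay well under both vector libraries. POLR2G, the subunit RPB7 of the stalk that projects from the enzyme, stood at 595 and 627 FPKM with vector against 395 and 369 with STING (log2 change -0.68, SE 0.10, limma adjusted p = 0.0062). Its groups did not overlap either. POLR2D, its partner in the stalk, named here after its values were seen, stood at 31.7 and 39.3 FPKM with vector against 38.8 and 41.1 with STING, so its groups overlapped (log2 change 0.18, adjusted p = 0.552 by limma). POLR2B, the second largest subunit and the most positive of this class, stood at 5.97 and 5.52 FPKM with vector against 8.5 and 10.2 with STING, without overlap, and did not pass (log2 change 0.61, limma adjusted p = 0.102). In the GENCODE annotation 39.5% of the exonic bases of POLR2I lie opposite TBCB, a tubulin-folding cofactor on the other strand, and 49.8% lie opposite an unclassified transcript. The counting strand is not given, so reads of POLR2I and TBCB cannot be told apart in the shared bases. TBCB itself stood at 171 and 180 FPKM with vector against 106 and 113 with STING.

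Of the 5 subunits that polymerases I, II and III share, 2 fell, beside 9.29% of all genes tested. POLR2L, a small subunit (RPB10), stood at 1525 and 1152 FPKM with vector against 933 and 897 with STING (log2 change -0.53, SE 0.14, limma adjusted p = 0.047). The vector libraries differed more from each other than the STING libraries did, and the groups did not overlap. POLR2E, the jaw subunit RPB5, stood at 96.6 and 105 FPKM with vector against 68 and 72.6 with STING (log2 change -0.51, SE 0.13, limma adjusted p = 0.039). POLR2H, the subunit RPB8, had the most positive change of the shared set, with 217 and 222 FPKM with vector and 221 and 240 with STING, and its groups overlapped (log2 change 0.07, limma adjusted p = 0.741). Of the shared subunits 4 of 5 had a negative log2 change, from -0.53 to -0.13, and POLR2H a positive one that was within its SE of 0.11. Differences among these subunits were not tested.

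Promoter sequence is shown for members that fell together in the first experiment. RefSeq promoters (GRCh38.p14) were matched by symbol for 62 of the 84 members, and of the 6 that fell POLR2L, POLR2E and GTF3A had an entry with a stretch outside annotated exons. Each line below is 150 bases, 5′ to 3′ on the strand of the gene, and capitals mark a match to the GC box. GTF3A has a GC box match in the 250 bases searched, but outside the stretch shown. POLR2L is from chr11:842546-842695 (minus strand), ending 16 bases before the start site, POLR2E from chr19:1095381-1095530 (minus strand), ending 5 bases before it, and GTF3A from chr13:27424394-27424543 (plus strand), ending 75 bases before it. POLR2I, POLR2G and POLR2J3 are named only.
POLR2L: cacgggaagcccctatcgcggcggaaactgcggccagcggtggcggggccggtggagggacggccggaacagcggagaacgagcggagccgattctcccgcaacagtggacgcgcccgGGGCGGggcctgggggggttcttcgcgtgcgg
POLR2E: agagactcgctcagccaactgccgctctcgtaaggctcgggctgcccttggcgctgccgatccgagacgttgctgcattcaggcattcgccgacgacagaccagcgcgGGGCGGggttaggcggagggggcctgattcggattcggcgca
GTF3A: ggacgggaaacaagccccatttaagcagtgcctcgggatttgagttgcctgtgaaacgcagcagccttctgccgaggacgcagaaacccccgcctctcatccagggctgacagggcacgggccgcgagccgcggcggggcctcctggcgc

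In the 250 bases before the start, on both strands and with each motif searched on its own, GGGCGG (the GC box) was present in 40 of 62 members (64.5%) in 77% of the tested genes with an entry and in 46.2% of all genes in the RefSeq table. CCGGAAG, a core bound by ETS factors, was present in 23 of 62 (37.1%), in 20.7% of tested genes and in 10.2% of all genes. TATAAA was present in 3 of 62 (4.84%), in 7.27% of tested genes and in 13% of all genes. These are matches of letters, and no difference in share was tested.

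POLR2J3 and POLR2M stand apart from the core enzyme. POLR2J3, 1 of several near-identical copies of the small subunit gene POLR2J, stood at 6.2 and 4.91 FPKM with vector against 2.6 and 2.41 with STING (log2 change -0.90, SE 0.24, limma adjusted p = 0.047). The copies share sequence, so the split of reads between them is uncertain. POLR2J itself, named after its values were seen, stood at 191 and 148 FPKM with vector against 127 and 119 with STING, without overlap, and did not pass (log2 change -0.45, limma adjusted p = 0.088). POLR2M, which encodes the polymerase II regulator Gdown1, stood at 6.31 and 8.41 FPKM with vector against 6.4 and 6.92 with STING, with overlapping groups. Its annotated exons share 25.2% of their bases with GCOM1 on the same strand.

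No subunit of polymerase I alone or of the pair shared by I and III passed, beside 11.8% of all genes. At an unadjusted p under 0.05 by limma, 0 of these 4 tested genes were called, beside 8.82% higher and 18.9% lower for all genes. POLR1E, the subunit PAF53, was the highest tested member of polymerase I alone, with 8.84 and 12 FPKM with vector and 8.23 and 9.4 with STING. POLR1B, the second largest subunit of polymerase I, stood at 3.96 and 2.67 FPKM with vector against 4.48 and 5 with STING, without overlap (log2 change 0.43, SE 0.25, limma adjusted p = 0.316). The shared subunits lay in a narrow range. POLR1D stood at 337 and 316 FPKM with vector against 346 and 341 with STING, and POLR1C at 87.6 and 94.4 with vector against 98.4 and 97.5 with STING. Both had higher values in each STING library, by log2 changes of only 0.07 and 0.11.

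Of 10 subunits of polymerase III alone 0 passed. At an unadjusted limma p under 0.05, 0 were higher and 2 lower, beside 8.82% and 18.9% of all genes. POLR3K, a small subunit with a part in termination, was the highest at 553 and 540 FPKM with vector and 489 and 507 with STING (log2 change -0.13, limma adjusted p = 0.435). POLR3D, of the initiation and termination module, had the most negative change, from 5.8 and 8.96 FPKM with vector to 3.76 and 5.06 with STING (log2 change -0.62, SE 0.27, limma adjusted p = 0.180). Its groups did not overlap, but its vector libraries lay far apart. POLR3GL, the paralog that replaces POLR3G in a form of the enzyme, had the most positive, with 5.95 and 2.3 FPKM with vector and 8.91 and 6.05 with STING (log2 change 0.80, SE 0.38, limma adjusted p = 0.233).

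Of 18 tested TAFs, 1 passed, beside 11.8% of all genes tested. TAF1D, a subunit of the polymerase I factor SL1, stood at 9.56 and 6.55 FPKM with vector against 14.7 and 15.5 with STING (log2 change 0.85, SE 0.22, limma adjusted p = 0.047). Both STING libraries lay above both vector libraries. TAF1C, also of SL1, stood at 2.08 and 1.7 FPKM with vector against 1.25 and 1.74 with STING, with overlap. In TFIID the member with the highest level was TAF9, a histone-fold TAF also found in the SAGA coactivator, with 65.1 and 83.2 FPKM with vector and 95.9 and 77.8 with STING. Its annotated exons share 28.4% of their bases with AK6 on the same strand. TAF13, the histone-fold partner of TAF11, stood at 3.83 and 0.846 FPKM with vector against 13.5 and 6.93 with STING. This was the most positive log2 change among the 65 members tested (1.84, SE 0.58), its libraries differed widely within each group, and it did not pass (limma adjusted p = 0.129). Without vector library 1 it did (2.54, limma adjusted p = 0.020), as did POLR3GL (1.34, limma adjusted p = 0.0499); that fit leaves 1 vector library, the lower of the pair for both genes, which is assumed to vary like the STING libraries. TAF6, another histone-fold TAF and the most negative of TFIID, stood at 10.7 and 14.1 FPKM with vector against 10.2 and 8.27 with STING (log2 change -0.39 by limma, adjusted p = 0.302). Among the paralogs, TAF9B stood at 12.2 and 12.9 FPKM with vector against 10.9 and 8.06 with STING, and TAF4B at 0.943 and 1.8 with vector against 2.21 and 3.2 with STING; neither passed.

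Of 19 tested GTFs, 1 passed, beside 11.8% of all genes tested. GTF3A, the zinc-finger protein TFIIIA that binds the 5S ribosomal RNA gene and its product, stood at 145 and 153 FPKM with vector against 105 and 99.9 with STING (log2 change -0.53, SE 0.12, limma adjusted p = 0.024). Its 4 libraries formed close pairs that did not overlap. None of the 6 tested subunits of TFIIIC passed. At an unadjusted limma p under 0.05 there were 0, beside 8.82% higher and 18.9% lower for all genes. Among the TFIIIC subunits GTF3C4 had the most positive change, with 2.34 and 3.1 FPKM with vector and 4.6 and 4.23 with STING (log2 change 0.55, SE 0.24, limma adjusted p = 0.185). In the polymerase II set GTF2A2, the small subunit of TFIIA, stood at 77.2 and 77.4 FPKM with vector against 61 and 60.7 with STING, close pairs without overlap (log2 change -0.34, limma adjusted p = 0.130). GTF2F1, the large subunit of TFIIF, stood at 2.8 and 2.96 FPKM with vector against 4.53 and 4.4 with STING, also without overlap (log2 change 0.49, limma adjusted p = 0.202). GTF2H1, GTF2H3, GTF2H4 and GTF2H5 encode parts of TFIIH. GTF2H2B is a copy of GTF2H2 for which no coding length was found, and GTF2H2 itself was too low to test. All 5 tested genes named GTF2H had negative log2 changes, between -0.76 and -0.11, as had 5114 of all 9464 genes tested. None of the 5 passed, and 1 was lower at an unadjusted limma p under 0.05, beside 18.9% of all genes. That gene was GTF2H4, the subunit that anchors the XPB translocase, with 5.48 and 6.05 FPKM with vector and 4.1 and 2.14 with STING. GTF2H1, the scaffold subunit p62, stood at 9.13 and 10.8 FPKM with vector against 9.03 and 9.05 with STING, and GTF2H3 at 9.01 and 6.3 with vector against 8.39 and 5.71 with STING. GTF2IRD1, of the GTF2I family, stood at 1.35 and 1.58 FPKM with vector against 2.13 and 2.2 with STING (log2 change 0.36, limma adjusted p = 0.390).

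**Figure D2:**
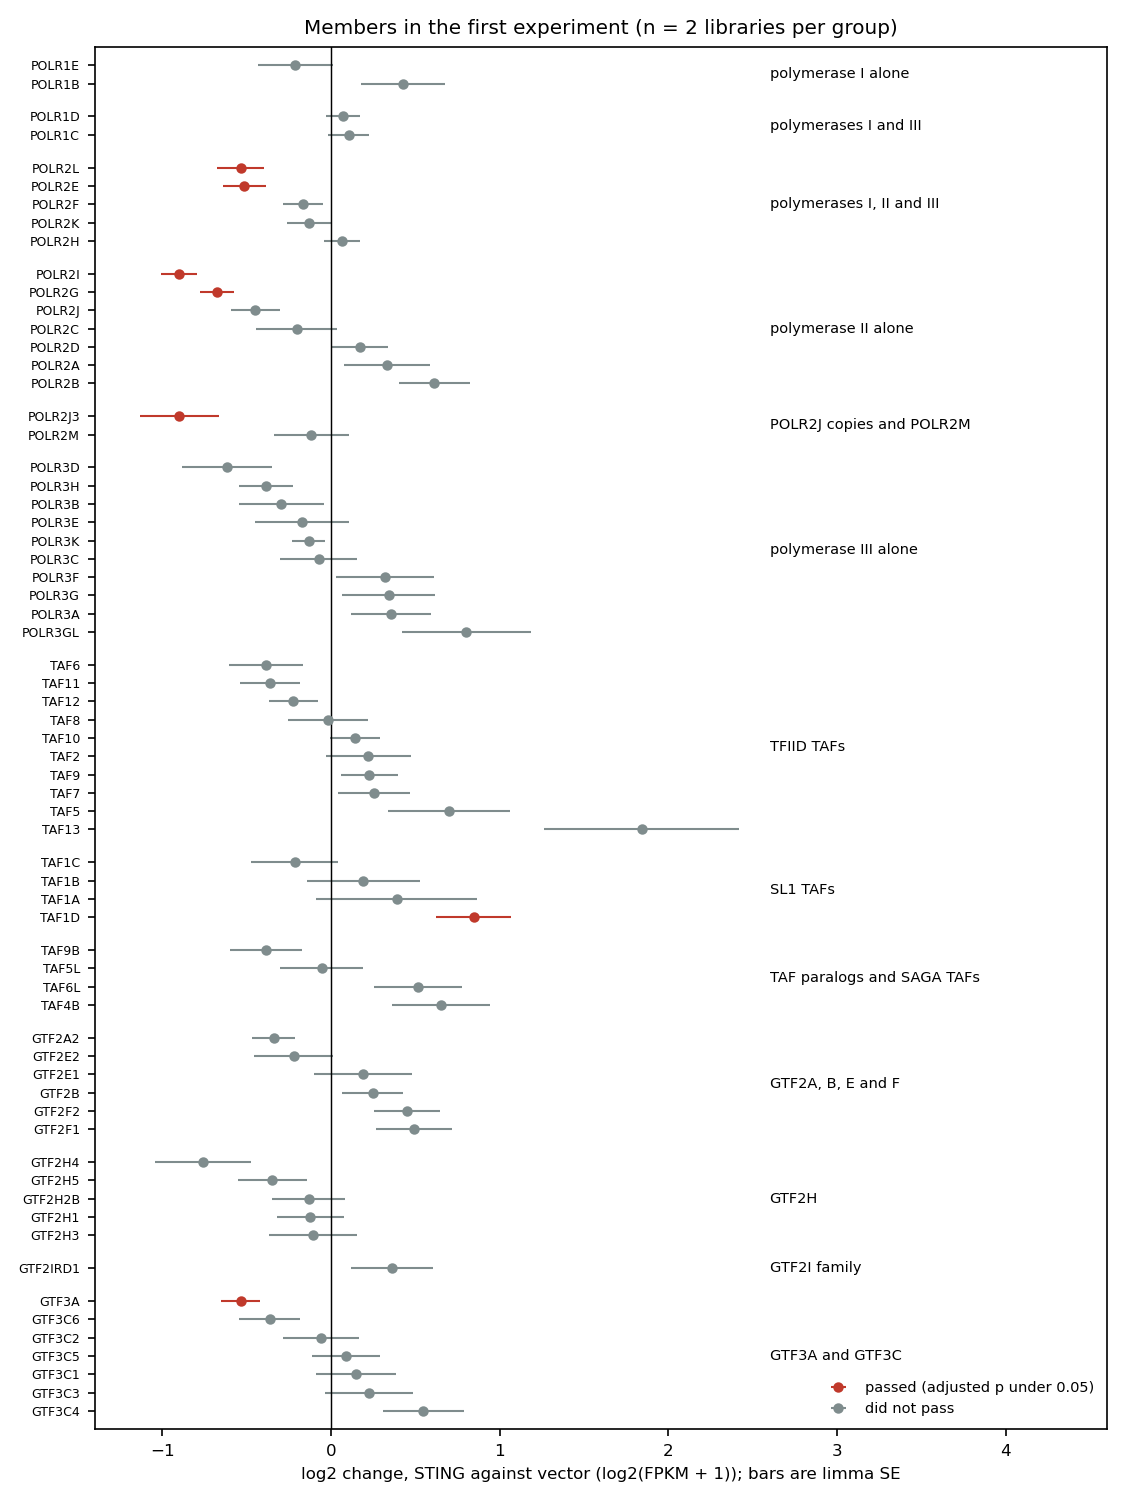
Log2 change with STING in the first experiment for each of the 65 members tested, on the log2(FPKM + 1) scale, grouped by role; bars are limma standard errors and red marks members that passed. The 6 members that fell lie between -0.90 and -0.51, and TAF1D, the member that rose, at 0.85.

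Groups that did not overlap were common without a call. Over the 65 members tested, 19 had both STING libraries above both vector libraries and 22 had both below, beside 24.2% and 32.8% of all tested genes. None of the 7 calls held in the fit without STING library 1 or in that without STING library 2, where 42 and 38 of all genes passed in place of 1117. POLR2I and POLR2G passed without vector library 1 and without vector library 2, POLR2L without vector library 2 and TAF1D without vector library 1, and with median-of-ratios scaling POLR2I, POLR2G and GTF3A passed. The sum of FPKM was lower in both STING libraries, and its part in these results was not tested.

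Most of the members that fell have short coding sequences. Across 63 tested members with a coding length in GENCODE, Spearman's rho between log2 change and that length was 0.371, and across all 8141 tested genes with a length it was 0.29; this is a correlation across genes, all from the same 4 libraries. Of 32 members with a coding length at or under the members' median of 1014 nt, 5 fell and 1 rose, with a median log2 change of -0.15. Among the 31 longer ones, 1 fell and 0 rose, with a median of 0.15. All tested genes split at the same length gave 18.2% lower and a median of -0.21 for the shorter and 3.38% lower and a median of 0.06 for the longer. POLR2L (201 nt), POLR2I (375 nt), POLR2G (516 nt) and POLR2E (630 nt) are on the short side, and GTF3A (1095 nt) on the long side. TAF1D (834 nt) and TAF13, both with positive log2 changes, are also short. In the knockout experiment the members' rho between length and change with STING was -0.118 in wild-type and 0.30 in knockout cells. The part of length in the calls was not tested.

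**Figure D3:**
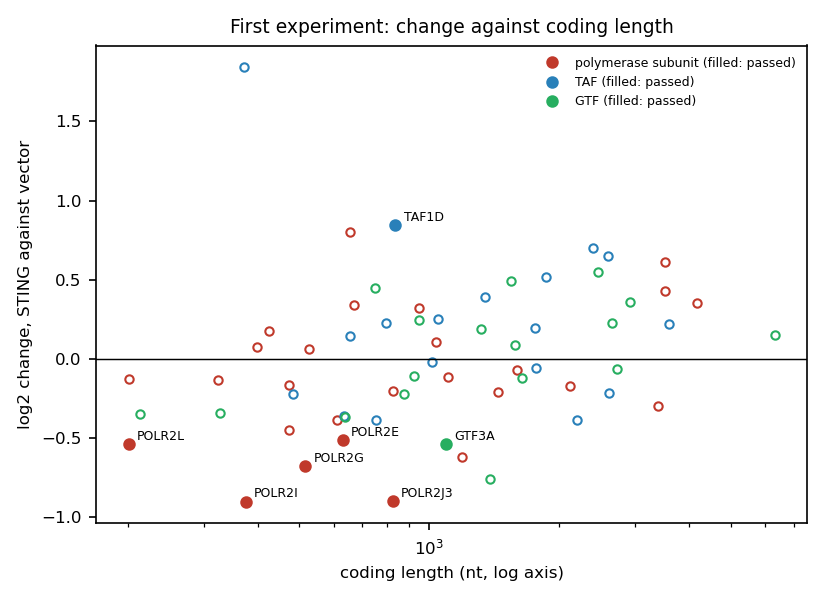
Log2 change with STING in the first experiment against coding length (nt, log axis) for 63 tested members, with polymerase subunits in red, TAFs in blue and GTFs in green, and members that passed filled and named. The passing polymerase subunits lie at the short end under 0, and TAF1D lies above 0 at 834 nt.

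Other parts of the transcription machinery were set beside the members. The initiation list held mainly initiation factors outside the rule. It also held subunits of polymerase I (CD3EAP, TWISTNB and ZNRD1) and polymerase III (CRCP) under other symbols, and the polymerase I termination factor TTF1. Of its 19 tested genes 2 rose and 0 fell. For this and the following lists, the shares over all genes tested were 2.51% higher and 9.29% lower. CDK7, the kinase of TFIIH whose gene is outside the GTF2H names, rose from 7.4 and 7.21 to 12.6 and 15.5 FPKM. SNAPC5, of the complex for small nuclear RNA promoters, rose from 7.87 and 5.43 to 13.7 and 14.5. Mediator, the bridge between activators and polymerase II, had 0 of 27 higher and 2 lower: MED16, from 27.5 and 27.1 to 12.3 and 9.97 FPKM, and MED29, from 33.6 and 31.5 to 20 and 21.1. Of 25 factors of elongation, pausing and termination 2 rose and 0 fell: SSRP1, of the histone chaperone FACT, from 5.58 and 7.12 to 15.5 and 16.6 FPKM, and XRN2, the exonuclease of termination, from 5.22 and 7.42 to 11.6 and 12.6. These calls also depended on the fit. Of 12 alternatives each, CDK7 passed in 6, SNAPC5 in 7, MED16 in 9, MED29 in 4, SSRP1 in 9 and XRN2 in 7. All of them missed the threshold without trend or robust estimation. By limma 0 of 7 mitochondrial transcription genes and 0 of 12 partners of TAFs in SAGA passed. At an unadjusted limma p under 0.05 there were 1 and 0, the 1 being higher, beside 8.82% higher and 18.9% lower for all genes.

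The second comparison asks the same of the knockout experiment, in its wild-type cells. All 74 members were tested, 8 of them at the floor of 1 in at least 1 library. None passed by limma, beside 0.00816% of 12254 genes tested, which is TMEM173 alone. At an unadjusted p under 0.05, 18 members were lower and 0 higher, beside 12.4% and 0.441% of all genes. The median log2 change was -0.32 over the members and -0.27 over all genes. Median-of-ratios scaling moved both to 0.05, so relative to all genes the members' median was not lower. Both STING libraries lay under both vector libraries for 47 members and above them for 1, beside 52.3% and 3.31% of all genes. The member that was higher was POLR2K, a shared zinc-binding subunit named here after its values were seen, with 211 and 185 FPKM with vector and 233 and 236 with STING.

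The 7 genes that passed in the first experiment had these values in wild-type cells. POLR2I stood at 488 and 331 FPKM with vector against 387 and 341 with STING, with overlap, and a log2 change of -0.14. POLR2G stood at 230 and 243 with vector against 190 and 163 with STING (log2 change -0.43), and POLR2E at 122 and 126 with vector against 77.6 and 69.4 with STING (log2 change -0.75, limma adjusted p = 0.384), both without overlap. POLR2L, at 991 and 694 with vector and 831 and 670 with STING, overlapped. GTF3A stood at 135 and 177 FPKM with vector against 125 and 119 with STING, without overlap (log2 change -0.34). POLR2J3 stood at 7.73 and 8.41 with vector against 6.95 and 7.05 with STING, and TAF1D at 64.7 and 81.5 with vector against 65.6 and 62.6 with STING. None of these 7 passed. TAF1D, higher with STING in the first experiment, had a log2 change of -0.18 here.

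Across the 64 members tested in both experiments, Pearson r between the changes with STING was 0.04, a correlation across genes between separate tables. Both STING libraries lay under both vector libraries in each experiment for 17 members, and above them in each for 0, beside 23.7% and 1.29% of genes tested in both. For 11 members the libraries were apart in opposite directions, beside 14% of all. The widest of these was POLR2B, which stood at 10.7 and 13.9 FPKM with vector against 5.71 and 6.36 with STING in wild-type cells (log2 change -0.91, limma adjusted p = 0.384), against a log2 change of 0.61 in the first experiment.

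Subunits of polymerase III alone were also compared as a class in wild-type cells. For all 10, both STING libraries were under both vector libraries, beside 52.3% of all genes, with log2 changes between -0.81 and -0.29. The same held for 3 of 3 members of polymerase I alone, 6 of 7 of GTF2A, B, E and F, 16 of 22 genes of the initiation list and 21 of 27 elongation factors. It held for 3 of 7 subunits of polymerase II alone and 2 of 5 shared by all enzymes. The median of the 10 is given next. Their median was -0.55, beside -0.27 over all genes and -0.32 over all members, none of them scaled. Median-of-ratios scaling moved the median of all genes and that of all members to 0.05. The scaled median of the 10 subunits is not given here. By limma 0 passed and 4 had an unadjusted p under 0.05 downward, beside 12.4% of all genes. POLR3K stood at 406 and 428 FPKM with vector against 338 and 329 with STING. POLR3GL stood at 29.7 and 30.4 with vector against 21.1 and 16.2 with STING (log2 change -0.67, SE 0.21, limma adjusted p = 0.384). POLR3D stood at 13.1 and 13.7 with vector against 9.96 and 10.2 with STING. By comparison the medians were -0.23 for the 7 subunits of polymerase II alone, -0.15 for the 5 shared by all enzymes and -0.63 for the 3 members of polymerase I alone. Outside the members they were -0.68 for the mitochondrial transcription genes and -0.45 for the initiation list, which also holds subunits of polymerases I and III. No difference between these classes was tested.

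The third comparison is STING against vector in knockout cells. No member passed by limma, beside 0.00816% of all genes tested. At an unadjusted p under 0.05, 12 members were lower and 0 higher, beside 6.64% and 1.06% of all genes. The median log2 change was -0.20 over the members and -0.11 over all genes, and -0.02 and 0.04 with median-of-ratios scaling. Both STING libraries were under both vector libraries for 27 members and above for 3, beside 21.9% and 5.66%. POLR2L stood at 842 and 684 FPKM with vector against 587 and 512 with STING, and POLR2H at 274 and 292 with vector against 186 and 198 with STING (log2 changes -0.47 and -0.55). POLR2G stood at 171 and 204 with vector against 113 and 162 with STING. GTF2A2 stood at 117 and 122 FPKM with vector against 68.5 and 81.2 with STING (log2 change -0.68, limma adjusted p = 0.470). All 4 had groups that did not overlap, and they were not the members that fell most. Larger falls, of genes named after their values were seen, were those of GTF2H1 (-0.97), TAF12 (-0.78), TAF1A (-0.77), TAF5L (-0.76) and TAF11 (-0.74), also without overlap. POLR3GL, by contrast, stood at 32.1 and 30.5 with vector against 28.1 and 35.8 with STING, with overlap.

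**Figure D4:**
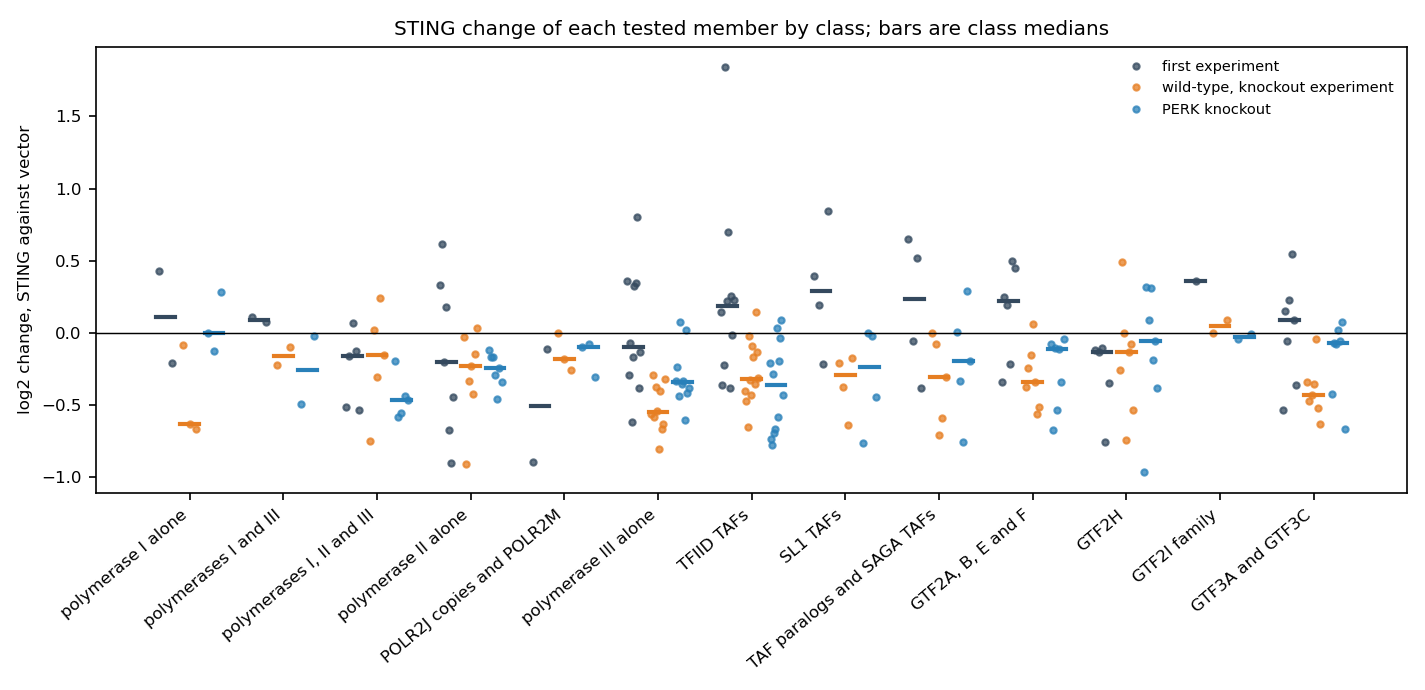
Log2 change with STING for each tested member by class, for the first experiment and for wild-type and PERK knockout cells of the second, with a bar at each class median. The 10 subunits of polymerase III alone all lie under 0 in wild-type cells, and 4 of the 10 lie above 0 in the first experiment.

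Whether the change with STING differs between knockout and wild-type cells was tested as an interaction, knockout minus wild-type. No member passed by limma, and 0% of all genes did. At an unadjusted p under 0.05, 4 members had a higher and 1 a lower change in knockout cells, beside 3.04% and 0.832% of all genes. The medians were 0.01 over the members and 0.13 over all genes, and -0.14 and -0.02 with median-of-ratios scaling, which turned the sign of both. The largest differences were of GTF2H2D and POLR1E. GTF2H2D, a copy of the TFIIH subunit gene GTF2H2, stood in wild-type cells at 2.43 and 3.19 FPKM with vector against 1.13 and 1.4 with STING. In knockout cells it stood at 2.27 and 1.5 with vector against 2.56 and 2.53 with STING (difference 1.06, SE 0.31, limma adjusted p = 0.966). It lies near the floor, and its reads may be split among copies. POLR1E stood in wild-type cells at 11.9 and 11.5 FPKM with vector against 6.21 and 7.8 with STING. In knockout cells it stood at 9.35 and 13.9 with vector against 13.2 and 15.2 with STING, where the groups overlapped (difference 0.96, SE 0.34, limma adjusted p = 0.966).

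Knockout cells were also set against wild-type cells. With vector no member passed by limma, beside 0.049% of all genes, and at an unadjusted p under 0.05 there were 8 lower and 0 higher members, beside 7.99% and 4.38%. The median log2 difference was -0.18 over the members and -0.09 over all genes (-0.03 and 0.05 with median-of-ratios scaling). With STING, 1 of 74 members was lower and 0 were higher, beside 0.547% and 1.21%, or 1.75% of all genes in either direction. At an unadjusted p under 0.05 there were 12 lower and 5 higher, beside 7.1% and 10.3%. The comparisons with vector and with STING each share libraries with the tests of STING above.

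The member that was lower was GTF2H1, the scaffold of TFIIH. In wild-type cells it stood at 11 and 13.2 FPKM with vector against 9.73 and 10.1 with STING. In knockout cells it stood at 5.84 and 7.32 with vector against 2.38 and 3.4 with STING. With STING its log2 difference, knockout against wild-type, was -1.5 (SE 0.23, limma adjusted p = 0.032), and with vector it was -0.79 (SE 0.23, limma adjusted p = 0.261). The interaction for GTF2H1 did not pass (-0.71, limma adjusted p = 0.966). The knockout difference of GTF2H1 with STING passed in 8 of 16 alternatives, with log2 differences between -1.69 and -0.92. Among them, it passed in 1 of 8 fits that left out a library (without knockout vector library 1). It missed the threshold when the 4 STING libraries were fitted alone. TMEM173 was itself lower in knockout cells with STING, at 10512 and 7338 FPKM against 41812 and 40660, and HEK293 markers were higher, KRT8 with 67.9 and 68.3 against 11.8 and 13.7; their part in this result was not tested.

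Over both plasmids, 5 members had all 4 knockout libraries under all 4 wild-type libraries and 1 had all above, beside 5.61% and 5.79% of all genes. These were GTF2B, GTF2H1, POLR1C, TAF13 and TAF8, and GTF2H4 was the one above; they were named after their values were seen. GTF2B, the factor TFIIB that places polymerase II at the start site, stood at 18.9 in both wild-type vector libraries, at 16.5 and 17.2 with STING, at 6.43 and 11.7 in knockout vector and at 6.34 and 10 in knockout STING libraries. TAF13 stood between 11.7 and 14.6 FPKM in wild-type and between 5.83 and 8.2 in knockout libraries. POLR1C stood between 57.7 and 71.9 in wild-type and between 38.1 and 56.8 in knockout libraries, so its gap was small. TAF8, a TFIID subunit needed for assembly, stood between 5.32 and 6.14 in wild-type and between 4.08 and 4.75 in knockout libraries. GTF2H4 stood between 4.91 and 5.41 in wild-type and between 5.76 and 8.38 in knockout libraries. Of these 6, GTF2H1 passed in the comparison with STING. TAF13 missed the threshold there (-0.96, limma adjusted p = 0.071) and passed with median-of-ratios scaling (-0.99, limma adjusted p = 0.043) and with quantile normalization (-1.04, limma adjusted p = 0.043). GTF2B did not pass (-0.99, limma adjusted p = 0.155), a call that also depends on the fit.

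**Figure D5:**
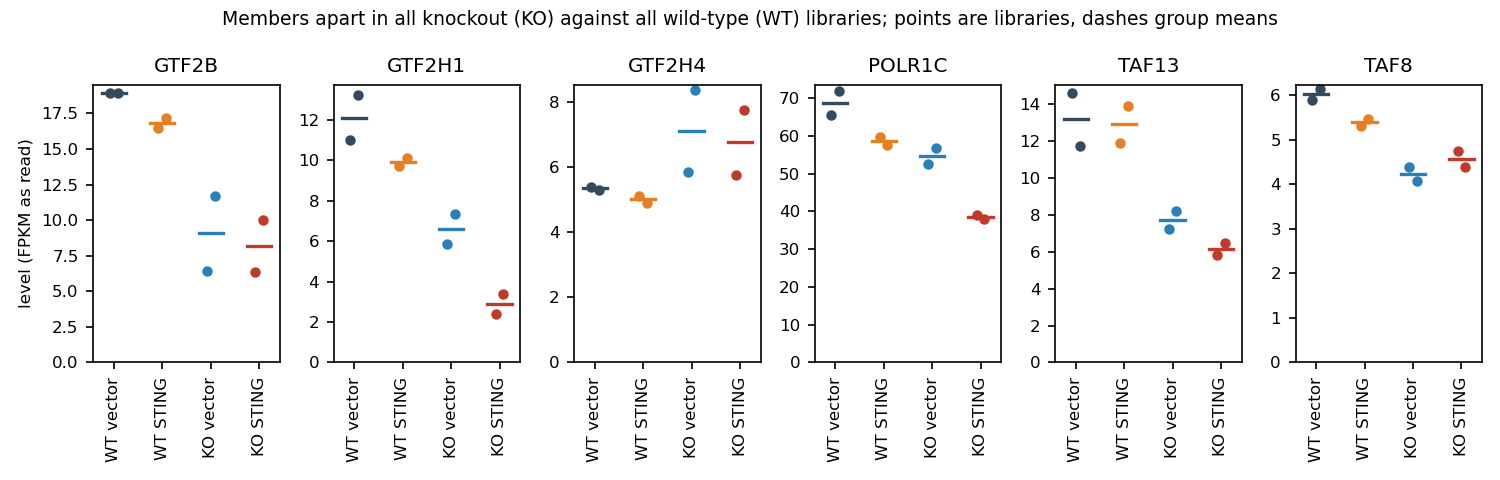
Level (FPKM as read, linear axes from 0) of the 6 members whose 4 knockout libraries lie all under or all above the 4 wild-type libraries, with each library as a point and each group mean as a dash. GTF2H1 stands at 11 and 13.2 in wild-type vector libraries and at 2.38 and 3.4 in knockout STING libraries, and GTF2H4 is the member that lies higher in knockout cells.

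Library number also ordered some members in the knockout experiment. Library 1 lay above library 2 in each of the 4 groups for 6 members, beside 7.1% of all genes, and below it for 17, beside 21.2%. The 6 were POLR1D, POLR2F, POLR2I, POLR2J, POLR2L and TAF1C, named after their values were seen. POLR2J, for example, stood at 359 and 216 FPKM with vector and 330 and 247 with STING in wild-type cells and at 339 and 194 and at 252 and 161 in knockout cells. POLR2F, a subunit of all 3 enzymes, stood at 365 and 228, 339 and 250, 325 and 202, and 195 and 149 in the same order.

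In the other lists of the transcription machinery no gene passed by limma in any comparison of the knockout experiment. With STING in wild-type cells, 5 of 22 genes of the initiation list, 8 of 31 Mediator genes, 6 of 27 elongation factors, 3 of 7 mitochondrial genes and 2 of 15 SAGA partners were lower at an unadjusted p under 0.05, beside 12.4% of all genes, and 0 were higher. In knockout cells the counts were 1, 3, 1, 1 and 1 lower, beside 6.64%, and 0 higher. In knockout against wild-type cells with vector they were 5, 5, 2, 2 and 1 lower, beside 7.99%, with 1 Mediator gene higher, beside 4.38%. With STING that comparison gave 2, 7, 3, 1 and 1 lower, beside 7.1%, and 4 Mediator genes, 1 elongation factor and 1 mitochondrial gene higher, beside 10.3%. For the interaction 1 gene of the initiation list, 1 Mediator gene and 2 mitochondrial genes had a higher change in knockout cells, beside 3.04% of all genes, and 0 a lower one.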

How the data were processed

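Polysome-fraction RNA of 12 HEK293 libraries in 6 groups of 2 was analysed, with groups taken from sample titles. The authors deposited FPKM values made with TopHat2 2.1.1 and Cufflinks 2.2.1 on hg19, per the submitters' processing notes. The gene annotation is not given in the sources used here. Depth is unknown, and the number of libraries limits precision. Values were tested in limma 3.58.1 (R 4.3.3) as log2(FPKM + 1), unscaled, leaving out constant genes and those with a mean under 1, with a moderated two-sided test (intensity trend, robust) and Benjamini-Hochberg adjustment at 0.05 over all genes tested. The experiments were fitted separately, and the knockout fit shared 1 spread over its 8 libraries. Scripts were tested on simulated data. Members and lists were chosen with earlier results of these data known. Named were members that passed, the highest member and the most positive and most negative change of each class in the first experiment, and the 2 largest interactions. Genes of the other lists were named where they passed, and POLR1A, POLR2A and POLR3A for their role. Other members, such as GTF2H3 and TAF6L, were named after their values were seen, which is not said at every place. Coding lengths are from GENCODE release 29. Alternatives varied pseudocount, filter, scaling, moderation, replicate block and libraries.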

Additional observations from a re-analysis of the deposited data

Results flagged for a closer look

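For 11 members the STING and vector libraries were apart in opposite directions in the first experiment and in wild-type cells of the knockout experiment, beside 14% of all genes tested in both. The difference was not tested, because the tables were made separately. The log2 changes in the first experiment and in wild-type cells were 0.61 and -0.91 for POLR2B, 0.80 and -0.67 for POLR3GL, and 0.43 and -0.63 for POLR1B. They were 0.52 and -0.59 for TAF6L, 0.49 and -0.57 for GTF2F1, 0.45 and -0.51 for GTF2F2, and 0.36 and -0.56 for POLR3A. For GTF2B they were 0.25 and -0.16, for GTF3C1 0.15 and -0.47, for TAF10 0.14 and -0.41, and for POLR1C 0.11 and -0.22. All 11 were positive in the first experiment and negative in wild-type cells. None passed in either, and the median over all genes was -0.05 in the first experiment and -0.27 in wild-type cells.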

How the results depend on the processing

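In the first experiment 1 member was higher and 6 lower. Without a filter on low values 0 and 2 passed, with median-of-ratios scaling 0 and 3, with quantile normalization 2 (POLR1D, POLR2H) and 1 (POLR2I), and without trend or robust estimation 0 and 0. Leaving out each library gave 0 to 3 higher and 0 to 4 lower. With a replicate block 2 were higher, TAF13 included, and 7 lower. For knockout against wild-type cells with STING, 1 member passed; 2 passed at a mean of at least 5, with median-of-ratios scaling, with quantile normalization and without trend or robust estimation, TAF13 being the second each time. A replicate block gave 5 (GTF2H1, TAF13, GTF2B and POLR2F lower, POLR1E higher), with limma adjusted p = 0.0498 for GTF2B, the 4 STING libraries alone gave 0, and leaving out each library gave 0 to 1. Causes were not tested, other than that the last 2 settings use fewer libraries. In the other 4 comparisons 0 members passed under each alternative run. No member named as passing changed direction; the log2 change nearest to 0 was -0.45 for POLR2I (passed in 9 of 12 alternatives), -0.24 for POLR2G (8) and GTF3A (5), -0.28 for POLR2E (4), -0.10 for POLR2L (5, adjusted p up to 0.703), -0.49 for POLR2J3 (3 of 11) and 0.61 for TAF1D (5). Over all genes of the first experiment 1117 passed, 580 without a filter, 17 without trend or robust estimation and 1587 with the block; with median-of-ratios scaling 305 were higher and 673 lower, and with quantile normalization 347 and 432, against 238 and 879. Over all genes with STING, knockout against wild-type, 215 passed, 356 at a mean of at least 5, 449 and 468 with the scalings, 851 with the block and 0 with 4 libraries. The labels do not say what a shared library number stands for. Deviations of same-numbered libraries correlated at 0.07 in the first experiment and at 0.04 to 0.53 over the 6 pairs of groups in the other, not above 0.1 in every pair, so they were not treated as paired, though the data do not show that the number marks nothing shared.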
